A study of Mus musculus with 15 samples.

Results

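The miRNA families mir-297, mir-466, mir-467 and mir-669 were followed in left ventricular (LV) tissue of wt, AGAT-/- and AGAT-/-hArg mice. Members were all rows of the miRNA count table whose name begins with mir-297, mir-466, mir-467 or mir-669 followed by a letter or a hyphen, with the 5p and the 3p arm as separate rows. This gave 160 of 1836 rows, which belong to 80 of 918 precursors. The rule reads names only and uses no measured value, although these families were picked with earlier results of these data known.

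AGAT (arginine:glycine amidinotransferase) makes homoarginine and guanidinoacetate, from which creatine is formed, and is lacking in AGAT-/- mice. Small RNA was sequenced from 5 wt mice (mice 1 to 5), 5 AGAT-/- mice (6 to 10) and 5 AGAT-/-hArg mice (11 to 15), which are AGAT-/- mice given homoarginine by osmotic mini pump over 4 weeks. All were littermates from heterozygous breeding on a C57BL/6J background of at least 6 backcross generations, and the labels used here give no age. Lane 8 held all wt and AGAT-/- libraries, whereas AGAT-/-hArg libraries came from lane 2, and supplementation and lane cannot be told apart. Each library is 1 mouse. Gatm, the deleted gene, gives no miRNA, which left the genotypes unchecked in these counts.

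Most members lie inside an intron of Sfmbt2, a mouse gene for a Polycomb group protein that is imprinted and expressed from the paternal allele. These counts do not show which allele is expressed in LV tissue. The cluster is a rodent feature that grew by repeated duplication, and it is best known from placenta and embryonic stem cells. A miRNA precursor is cut to a hairpin whose 5p and 3p strands can each be loaded into Argonaute, and bases 2 to 8 of the loaded strand, the seed, pair with target mRNAs.

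Many rows of the table were at 0 in a way that limits what a 0 can mean. In all, 672 of the 1836 rows held no read in any of the 15 libraries. Among them were all 6 rows for the 3p arms of mir-1a, mir-133a, mir-208a and mir-208b, which include the defining miRNAs of heart muscle, while mir-499-5p held 6290 reads and mir-133a-1-5p 3289. The 3p rows of mir-143, a smooth muscle miRNA, and mir-223, a myeloid miRNA, and both rows of mir-451a, an erythroid miRNA, were at 0 as well. Of the 101 precursors with more than 1000 reads on an arm, 45 (44.6%) had the other arm at 0 in every library. An example is mir-378a, with 3065266 reads on the 3p row and none on the 5p row. The reason for these zeros was not tested, and a row at 0 is therefore called listed at 0 here and not taken as absence of the miRNA. Shares of all reads and CPM (counts scaled to a common library size by the TMM method) are relative to the reads that the table lists.

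Of the members, 32 rows were listed at 0 in every library, 45 held between 1 and 10 reads over the 15 libraries, 76 held between 11 and 100, and 7 held more than 100. A read was present in every library for 32 rows, and 2 rows had more than 10 reads in every library. Of the 76 member precursors with reads, 24 had the other arm listed at 0, among them mir-669c with 260 reads on 5p, mir-466g with 193 on 3p and mir-466q with 109 on 3p. Members took 4340 of the 6817774 reads of the table (0.0637%). The mir-467 family held 1923 reads on 34 rows, mir-669 held 1261 on 56, mir-466 held 1067 on 58 and mir-297 held 89 on 12. Libraries held between 365634 and 570492 reads, so that 3 reads corresponded to between 4.93 and 8.21 CPM on the TMM scale. These floors cover counting error only.

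Mature sequences in RefSeq (GRCm38.p6) were matched for 8 members, none of them in Sfmbt2. The 5 with at least 1 read are shown as the members whose reads can be set beside a sequence. Seeds are in capitals.
mir-466q-3p: gUGCACACacacacauacgu
mir-466i-3p: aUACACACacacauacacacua
mir-466k-5p: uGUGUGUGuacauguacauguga
mir-467g-3p: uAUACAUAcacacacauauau
mir-669n-5p: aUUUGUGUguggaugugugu
The sequence of mir-466q-3p lies at chr3:28419988-28420007 on the plus strand, within an intron of Tnik on the same strand, and that of mir-466i-3p at chr13:17747552-17747573 in an intron of Cdk13 on the other strand. All 8 seeds differed from each other. A run in which purines and pyrimidines alternate, as in UGUGUG or ACACAC, reached a median of 20 bases in the 8 sequences (8 to 22), against a median of 4 bases in 1730 entries of other miRNAs. Runs of at least 10 bases were found in 7 of the 8, mir-669n-5p being the exception with 8, and in 15 (0.867%) of the others. The sequences of members in Sfmbt2 were not examined here. These are short, simple sequences, and the counts cannot show whether each read came from the precursor whose row it stands in.

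On GRCm38, 78 of the 80 precursors were placed. Of these, 68 lay within Sfmbt2 (chromosome 2, 10370510 to 10595253, plus strand), all on its strand, all in intron 10 of its longest coding transcript (10461473 to 10523944) and none overlapping an exon. They covered 51.6 kb, from 10466663 to 10518279. No annotated miRNA gene outside the 4 families was found in Sfmbt2. The 10 mir-467a copies were spaced by a median of 2462 bases (2413 to 4880), and a mir-467, a mir-466 and a mir-669 precursor followed each other in this order 11 times. Precursors in Sfmbt2 held 4075 of the members' reads, the 10 placed elsewhere held 189 and the 2 not placed (mir-466a and mir-466c-3) held 76.

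**Figure D1:**
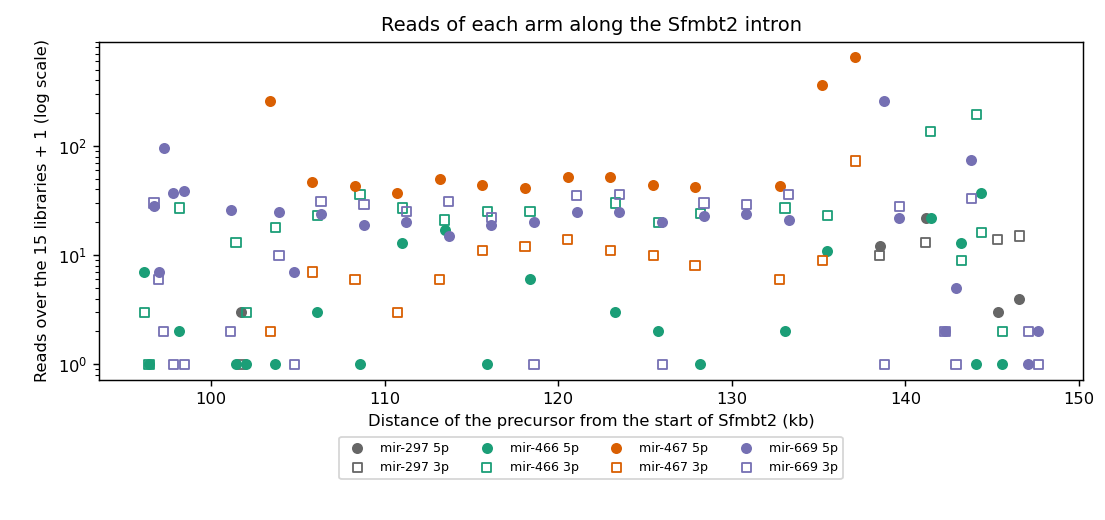
Reads of each arm over the 15 libraries plus 1 (log axis) against the distance of the precursor from the start of Sfmbt2 in kb, with 5p as filled circles and 3p as open squares. The single-copy rows mir-467c-5p, mir-467e-5p, mir-467d-5p and mir-669c-5p, at 103.42, 135.21, 137.12 and 138.79 kb, stood above the rows of the repeated copies between them, and points at 1 are rows listed at 0.

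The repeated copies of several names held nearly equal reads. Rows that differ only in a copy number share a mature name, and the 10 rows of mir-467a-5p held 448 reads, with 40 to 51 on each. The variance of these totals was 0.386 times their mean, where independent counting gives about 1. The 12 rows of mir-669a-5p held 250 reads (14 to 24 each, ratio 0.47) and the 8 rows of mir-466b-3p held 184 (17 to 29, ratio 0.621). The 12 rows of mir-669a-3p held 330 reads (9 to 35, ratio 1.87), with the lowest on mir-669a-3-3p. The 10 rows of mir-467a-3p held 81 (5 to 13, ratio 1.03). A ratio over 8 to 12 rows varies by chance, and whether the low ratios lie below 1 was not tested. Equal sharing did not hold for every name, since the 4 rows of mir-466f-3p held 0, 26, 12 and 0 reads and those of mir-297a-3p held 0, 0, 13 and 14. Low ratios were also found outside the members. Among the other miRNA names compared, on 2 or 3 rows each, the ratio ran from 0 (mir-3084-5p) to 1.13e+05 (mir-24-5p). It was 0.0388 for mir-133a-5p. A ratio over 2 or 3 rows is often low by chance, so that these cannot show whether other miRNAs share such evenness. Single rows of the members tended to be even between mice too. For rows of a name with 3 or more copies, the variance over the mean across the 15 libraries had a median of 0.593 (53 rows), against 0.874 for names on 1 or 2 rows with 11 to 100 reads (23 rows) and 1.09 for other miRNAs with 11 to 100 reads (302 rows). Summed over the rows of a name, this ratio was 1.28 for mir-467a-5p, 1.37 for mir-669a-3p, 2.03 for mir-466b-3p and 0.479 for mir-669a-5p. Of these sums, only that of mir-669a-5p was as even as the single rows. How reads that match several copies were counted is not given in the sources used here, so that rows of one name may not be separate measurements. The tests below were run on rows, as deposited, and again on sums over each mature name, and both are given.

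**Figure D2:**
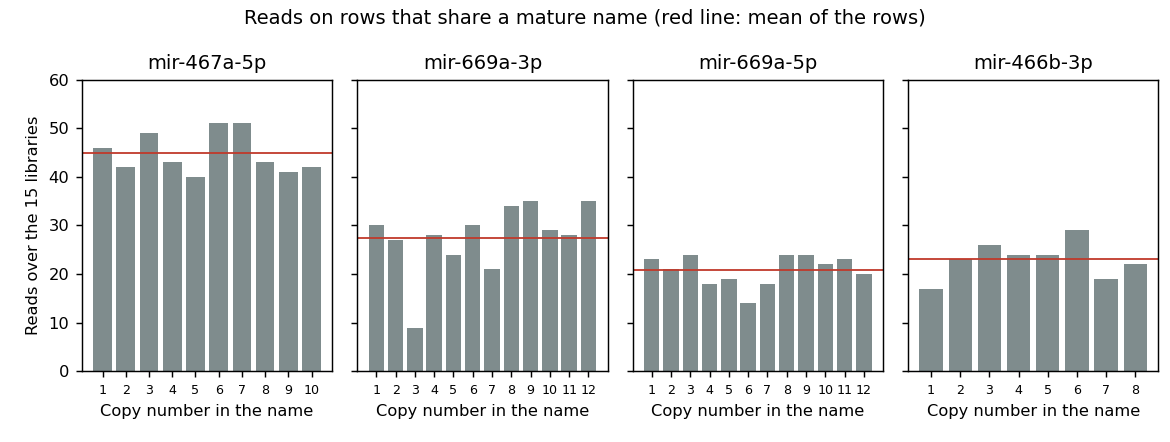
Reads over the 15 libraries (bars, from 0) on each row of 4 mature names that have 8 to 12 copies, by the copy number in the name, with the mean of the rows as a red line. The mir-467a-5p rows lay between 40 and 51 reads, and mir-669a-3-3p, with 9, stood below the other mir-669a-3p rows.

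Reads fell on different arms in the 3 larger families. In mir-467, 91.4% of reads were on 5p, and the share was 91.5% over the 14 of its 17 precursors with reads on both arms. In mir-466, 19.5% were on 5p, or 30.6% over the 16 of 29 precursors read on both arms. In mir-669 the share was 68.3%, or 54.5% over the 18 of 28 precursors read on both arms. The restriction to precursors read on both arms was chosen after the zeros were seen. The 3 mir-467 precursors left out by it held 2 reads, so that the share of mir-467 could hardly move, while well-read precursors were left out in mir-466 and mir-669.

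The summed level of the members was compared first, without a test. In wt mice 1 to 5 it was 644, 654, 649, 593 and 616 CPM (631 ± 25.8, SD, n = 5). In AGAT-/- mice 6 to 10 it was 554, 529, 624, 642 and 642 CPM (598 ± 52.6). In AGAT-/-hArg mice 11 to 15 it was 634, 708, 635, 649 and 730 CPM (671 ± 44.5). The ranges of the 3 groups overlapped on this scale. Scaled by total counts alone, the AGAT-/-hArg mice (650 to 761 CPM) lay above the AGAT-/- mice (538 to 638), so that this separation depended on the scaling. In bulk tissue, fewer cells of a type and less RNA per cell cannot be told apart.

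**Figure D3:**
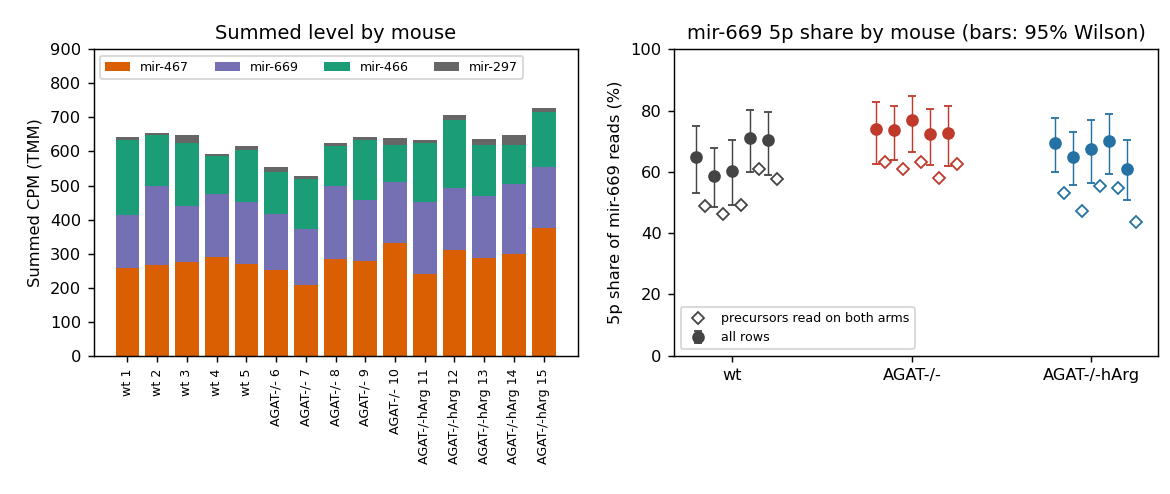
Left, summed CPM of the members by mouse, stacked by family. Right, the share of mir-669 reads on 5p by mouse, over all rows (filled circles with 95% Wilson intervals) and over precursors read on both arms (open diamonds). Summed levels lay between 529 and 730 CPM, and the mir-669 shares of AGAT-/- mice over all rows (72.4 to 76.9%) lay above those of the other mice.

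Levels were first taken by row. mir-467d-5p, the highest, held 94.1, 86.7, 94.2, 98.8 and 86.3 CPM in wt mice, 81.9, 72.9, 82.1, 93.8 and 116 in AGAT-/- mice, and 89.5, 103, 96.5, 89.8 and 144 in AGAT-/-hArg mice. AGAT-/-hArg mouse 15 was the highest of all, and the groups overlapped. mir-467e-5p held 41.6, 56.2, 52.3, 71 and 29.6 CPM in wt mice, 50.6, 43.4, 87.5, 62.5 and 51 in AGAT-/- mice, and 45.8, 57.5, 51.8, 38.5 and 63.8 in AGAT-/-hArg mice, again with overlap. mir-669c-5p ranged from 20.9 to 60.2 CPM over the 15 mice and mir-467c-5p from 18.7 to 57.9. mir-466g-3p ranged from 13.9 to 41.6 CPM. Summed over the rows of each mature name, the order of mean levels over all mice was mir-467d-5p (95.3 ± 16.7 CPM, SD, n = 15), mir-467a-5p (66.1 ± 13.3, 10 rows), mir-467e-5p (53.5 ± 14.1), mir-669a-3p (48 ± 11.6, 12 rows), mir-669c-5p (38.3 ± 9.8), mir-467c-5p (37.3 ± 12), mir-669a-5p (37.2 ± 7.22, 12 rows), mir-466g-3p (27.6 ± 7.71) and mir-466b-3p (26.4 ± 10.3, 8 rows). The first mean exceeded the second by more than the SD of either, and from mir-467a-5p on each name differed from the next by less than their SDs, except mir-669a-5p from mir-466g-3p. These levels are not divided by length, but mature miRNAs are of similar length. The 12 most read rows held 2315 of the 4340 reads.

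**Figure D4:**
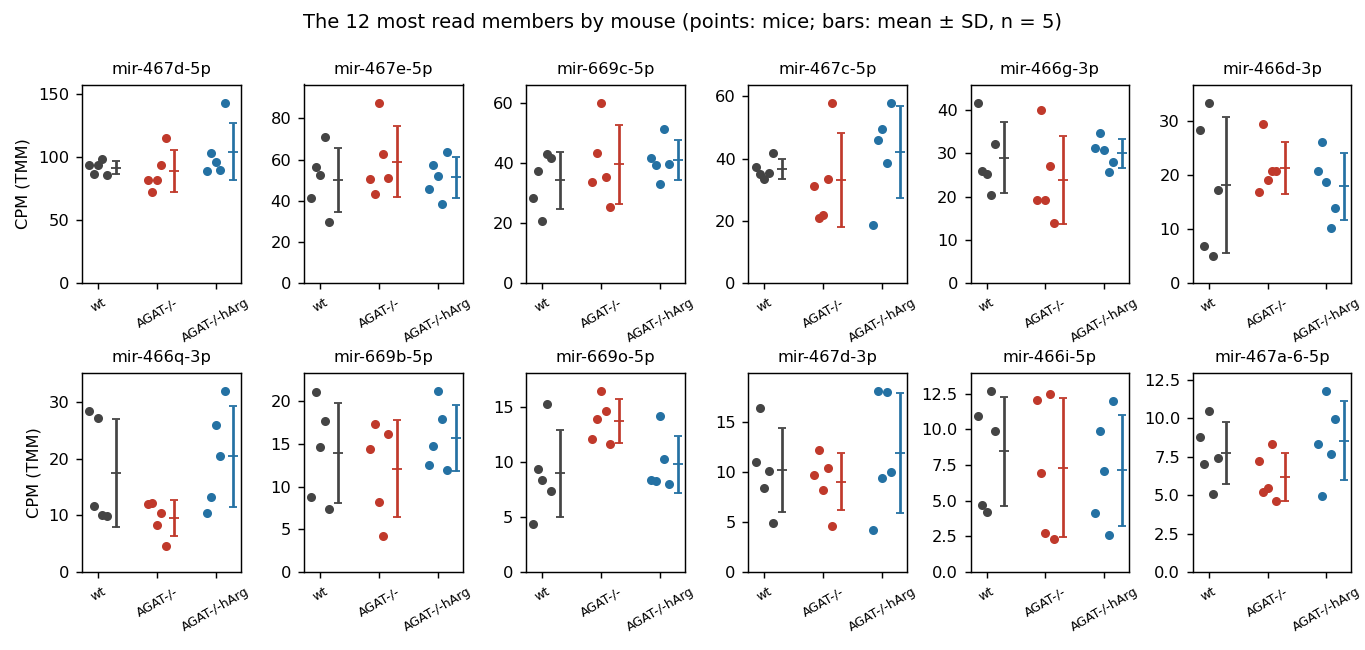
CPM of the 12 most read members, each panel with its own axis from 0. Points are mice and bars are the mean ± SD of 5 mice per group. The groups overlapped in every panel, and mir-466q-3p had its lowest mean in AGAT-/- mice.

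AGAT-/- mice were compared with wt mice to ask which miRNAs differ when homoarginine and creatine are lacking. Of the 160 members, 69 had more than 10 reads over the 10 libraries and were tested, which leaves out 91. No member differed at an FDR of at most 0.05 by edgeR's quasi-likelihood test with Benjamini-Hochberg adjustment over all 562 rows tested, of which 2.14% were called. An unadjusted p below 0.05 was found for 2 of the 69 members, against 10.7% of all rows, and also for 0 members by DESeq2 and 3 by limma-voom, neither of which called any. DESeq2 gave no adjusted p for 6 of the 69. Groups did not overlap for 3.38% of all rows and for no member. Most tested members held few reads per library, where groups separate less readily than in well-read rows. The same limit holds for these shares in the comparisons below. The members' median log2 fold change was -0.24 (-2.09 to 1.07), against -0.04 over all rows, and 22 of 69 lay above 0, against 46.6% of all rows. Over the 34 mature names tested the median was -0.15, with 13 above 0, and by limma-voom on rows it was -0.14, both smaller in size than the edgeR median by row. The value over all rows in those fits is not given here. The median SE of a row was 0.58.

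By family and arm, 1 of the 18 tested mir-466 3p rows had a log2 fold change above 0 (median -0.45), as had 2 of 13 mir-669 3p rows (median -0.38), 6 of 14 mir-467 5p rows (median -0.07) and 10 of 18 mir-669 5p rows (median 0.16). Single names make up much of these counts, since 11 of the 13 rows were mir-669a-3p, 10 of the 14 mir-467a-5p and 10 of the 18 mir-669a-5p. By mature name, 2 of 10 mir-466 3p names lay above 0, as did 0 of 3 mir-669 3p, 2 of 5 mir-467 5p and 5 of 8 mir-669 5p names. The lowest p belonged to mir-669a-7-3p, with 1, 2, 3, 3 and 1 reads in wt and 0, 1, 1, 0 and 0 in AGAT-/- mice (log2 fold change -2.09, SE 0.79, edgeR FDR 0.289). It is 1 of the 12 copies of mir-669a-3p. Summed over these copies, mir-669a-3p had 48.2, 77.3, 50.2, 48.2 and 44.4 CPM in wt and 28.9, 36.5, 38.3, 45.8 and 37.1 in AGAT-/- mice. All AGAT-/- mice but mouse 9 lay below every wt mouse, and the sum did not pass (log2 fold change -0.51, SE 0.22, edgeR FDR 0.37). The same name on the 5p arm had a log2 fold change of -0.18 (SE 0.21), and the sum of mir-467a-5p one of 0.00 with a 95% interval of -0.43 to 0.42.

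The second lowest p was that of mir-466q-3p, which lies outside Sfmbt2. It had 28.5, 11.7, 27.2, 10.1 and 9.86 CPM in wt and 12.1, 12.2, 8.21, 10.4 and 4.63 in AGAT-/- mice. Wt mice 1 and 3 were high, and the other 3 wt mice lay within the range of the AGAT-/- mice. The log2 fold change was -0.88 (SE 0.41, edgeR FDR 0.434), and -0.39 with the animal number in the fit. Most AGAT-/- mice had higher animal numbers than every wt mouse, so that this fit can hardly separate number from genotype. mir-467d-5p, the most precisely measured, had a log2 fold change of -0.06 with a 95% interval of -0.40 to 0.27, and mir-467e-5p one of 0.20 (-0.31 to 0.71).

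**Figure D5:**
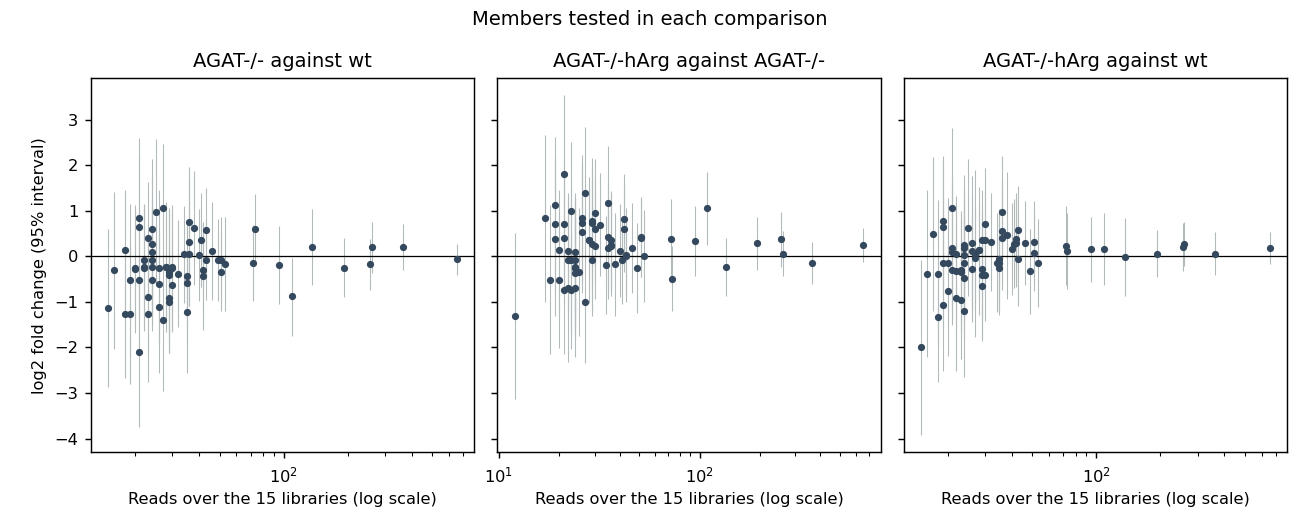
Log2 fold change (edgeR, 95% interval) of each tested member against its reads over the 15 libraries (log axis), in the 3 comparisons. Intervals narrowed with reads, to -0.40 to 0.27 for mir-467d-5p in AGAT-/- against wt mice, and no member passed the FDR.

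AGAT-/-hArg mice were compared with AGAT-/- mice to ask what homoarginine changes when creatine is still lacking. This comparison shares the AGAT-/- libraries with the one above, so that a low value there gives opposite signs in both. Again 69 members were tested and none passed the FDR, where 0.69% of all 580 rows did by edgeR. Unadjusted p below 0.05 was found for 2 members, against 7.41% of all rows, by DESeq2 for 1 and by limma-voom for 4, with none called by either. Groups did not overlap for 2.41% of all rows and for no member. The median log2 fold change was 0.23 (-1.32 to 1.81), against 0.01 over all rows, and 46 of 69 were above 0, against 51.6%. Over 33 mature names the median was 0.21, with 20 above 0. By mature name, mir-466 3p had a median of 0.29 (9 names), mir-669 3p 0.50 (3 names), mir-467 5p 0.23 (5 names) and mir-669 5p -0.09 (8 names).

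mir-466q-3p had 10.4, 13.1, 25.9, 20.5 and 31.9 CPM in AGAT-/-hArg mice. Mice 12 to 15 lay above the highest AGAT-/- value, and mouse 11 lay within the AGAT-/- range. The log2 fold change was 1.05 (SE 0.39, edgeR FDR 0.367). Summed mir-669a-3p had 52, 54.2, 54.1, 43.6 and 61.8 CPM, of which the mouse 14 value lay within the AGAT-/- range (log2 fold change 0.50, SE 0.20, edgeR FDR 0.39). For mir-467d-5p it was 0.25 (95% interval -0.12 to 0.62).

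AGAT-/-hArg mice were set against wt mice last, with both groups shared with the comparisons above. Of 72 members tested, none passed the FDR, against 2.99% of all 569 rows by edgeR. Unadjusted p below 0.05 was found for 1 member, against 12.5% of all rows, and for none by DESeq2 or limma-voom, which called none either. DESeq2 gave no adjusted p for 65 of the 72 members here, so that it could not call those. Groups did not overlap for 3.87% of all rows and for no member. The median log2 fold change was 0.07 (-2.0 to 1.06), against 0.01 over all rows, and 41 of 72 were above 0, against 51.1% of all rows. Over 34 mature names the median was 0.12, with 22 above 0. The member with p below 0.05 was mir-466h-3p, with 4, 3, 1, 0 and 1 reads in wt and 0, 0, 0, 1 and 1 in AGAT-/-hArg mice (log2 fold change -2.0, SE 0.93, edgeR FDR 0.371). mir-466q-3p had a log2 fold change of 0.16 (SE 0.38) and summed mir-669a-3p one of 0.01 (SE 0.20).

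For comparison, other miRNA clusters were counted in the same fits. The X-linked cluster with mir-465, mir-470, mir-871 and mir-881 held 4332 reads. Of its 21 tested rows, 4 were called higher in AGAT-/- than in wt mice by edgeR, against 1.6% of all rows. The median log2 fold change of the 21 was 1.48. Between AGAT-/-hArg and AGAT-/- mice, 0 of 24 were called, against 0.69% of all rows. In AGAT-/-hArg against wt mice, 3 of 19 were called, all higher (median 1.11), against 2.99% of all rows in either direction. Of the Dlk1-Dio3 cluster, which like Sfmbt2 is imprinted, 0 of 30 rows were called in AGAT-/- against wt mice (4 with an unadjusted p below 0.05, median -0.09). Differences between these clusters and the members were not tested.

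The share of mir-669 reads on 5p was a measure in which AGAT-/- mice stood apart, and it was singled out after its values were seen. It was 64.8, 58.6, 60.3, 71.2 and 70.3% in wt mice, 73.9, 73.7, 76.9, 72.4 and 72.7% in AGAT-/- mice and 69.6, 64.9, 67.5, 70 and 61.1% in AGAT-/-hArg mice. Each rests on 69 to 111 reads, and the 95% Wilson interval of the lowest AGAT-/- value, 62.2 to 80.7%, includes the highest wt value. Over precursors read on both arms, the AGAT-/- mice (57.9 to 63.3%) overlapped the wt mice (46.1 to 61.1%) but not the AGAT-/-hArg mice (43.5 to 55.4%). The separation from wt thus depended on rows whose other arm was listed at 0. mir-669a-3p held 330 of the 400 mir-669 reads on 3p. The 5p share and the lower mir-669a-3p sum of AGAT-/- mice given above therefore rest largely on the same reads. Of 126 precursors with more than 100 reads and reads on both arms, none had a 5p share that did not overlap between AGAT-/- and wt mice or between AGAT-/-hArg and AGAT-/- mice (0% in each), and 1 (0.794%) did not overlap between AGAT-/-hArg and wt mice, but those are single precursors and not sums over a family.

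Across the 15 libraries, the members most like mir-467d-5p in CPM were mir-467c-5p (Spearman's rho 0.75), mir-297b-3p (0.65) and mir-467a-1-5p (0.55), out of 82 compared, whose median rho was 0.02. These are descriptions over libraries that share depth and scaling, and mir-297b-3p rests on 12 reads.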

How the data were processed

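The authors mapped small RNA reads of TruSeq libraries to mouse miRBase entries in the CLC Genomics Workbench, and deposited whole-number read counts per mature arm that are not normalized. The version, the miRBase release, the mismatches allowed and the treatment of reads matching several miRNAs are not given in the sources used here. The submitters' processing notes name GRCm38. Groups came from the labels, and all 15 columns were used. Libraries of one group differed by more than sampling noise, and each was counted as 1 replicate.

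Each pair of groups was tested with edgeR 4.0.16 (R 4.3.3): TMM scaling, glmQLFit and glmQLFTest, on rows whose sum over the 10 libraries exceeded 10 reads, with Benjamini-Hochberg adjustment over all such rows and an FDR of at most 0.05. The edgeR fit was tried on simulated data, where recovery of changes was required only of well-read rows. That trial does not cover the read range of most members. Alternatives were DESeq2 1.42.0, limma-voom (limma 3.58.1), other scalings and filters, a fit of all libraries together, sums over rows of one mature name, the 3 most abundant miRNAs left out, the animal number as a covariate, and each mouse left out. Rows listed at 0 in every library were kept as deposited. Positions came from GENCODE M21 (77 precursors) or RefSeq. Named members were the 12 most read, the 5 with the lowest p in each comparison and any called; others were named after their values were seen. Members and lists were chosen with earlier results of these data known. Lists of cardiomyocyte, erythroid, smooth muscle, haematopoietic, fibroblast and endothelial miRNAs were drawn up to check the tissue, but most were matched only in part. Matched by name were 7 cardiomyocyte, 2 erythroid, 1 smooth muscle, 1 haematopoietic and 1 fibroblast precursor. The fibroblast rows matched (mir-199a-1) were listed at 0. The other planned markers, with all endothelial ones, were not analysed here, so that the lists give no full check of the tissue.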

Additional observations from a re-analysis of the deposited data

Results flagged for a closer look

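Within groups of 5 mice, 3 of 75 values tested stood apart from the other 4 by Dixon's criterion, which chance meets in about 1 of 20 groups. The share of mir-467 reads on 5p was 87.5% in AGAT-/- mouse 7, against 92.3 to 94% in the other AGAT-/- mice. mir-466a-3p was at 6.25 CPM in AGAT-/- mouse 9, against 1.74 to 2.74 CPM in the others, which are values of 1 to 3 reads. mir-467d-5p was at 144 CPM in AGAT-/-hArg mouse 15, against 89.5 to 103 CPM in the others.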

How the results depend on the processing

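No member passed the FDR in any of the 63 other fits. The median log2 fold change of the members in AGAT-/- against wt mice was -0.11 with every row of at least 1 read, -0.05 with filterByExpr (5 members) and 0.08 with more than 10 reads in every library (2 members), and ranged from -0.34 to -0.12 as single mice were omitted. In AGAT-/-hArg against AGAT-/- mice it was 0.07 with more than 10 reads in every library (3 members), 0.37 with the animal number as a covariate, and 0.13 to 0.29 with each mouse left out. In AGAT-/-hArg against wt mice it was 0.18 with total counts, which moved the median of all rows by 0.11, 0.15 with more than 10 reads in every library (2 members), 0.21 with filterByExpr (5 members), and 0.00 to 0.16 with each mouse left out. Without the 3 most abundant miRNAs in the library size, the summed levels became 2304, 2180 and 2457 CPM in wt, AGAT-/- and AGAT-/-hArg mice, by construction. Small differences changed sign. As single mice were omitted, the log2 fold change of mir-467d-5p in AGAT-/- against wt mice ranged from -0.11 to 0.02. In AGAT-/-hArg against AGAT-/- mice, that of mir-467e-5p ranged from -0.24 to 0.02 and that of mir-669c-5p from -0.10 to 0.23. In AGAT-/-hArg against wt mice, mir-467e-5p ranged from -0.09 to 0.21, mir-466g-3p from -0.03 to 0.24 and mir-466q-3p from -0.08 to 0.42, the lowest without AGAT-/-hArg mouse 15. In fits with animal number as covariate, mir-467c-5p became -0.06 and mir-466q-3p -0.04 in AGAT-/-hArg against wt mice, and mir-466q-3p -0.39 in AGAT-/- against wt mice. Animal numbers differed between the groups, most AGAT-/- mice having the highest, so that these fits can hardly separate number from group. The cause was not tested. Over precursors read on both arms, an alternative chosen after the data were seen, the 5p share moved to 30.6% for mir-466 and 54.5% for mir-669. DESeq2 gave no adjusted p for 6 members in AGAT-/- against wt and for 65 in AGAT-/-hArg against wt mice. No analysis paired by litter was possible, because the labels do not say which mice shared a litter.

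Depth limits these results: most members held under 100 reads over 15 libraries, and the median SE of a log2 fold change was 0.58 in AGAT-/- against wt mice. The zeros of the table cannot be undone by any setting, so that levels relative to all miRNAs and members listed at 0 remain unknown.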
